A study of Mus musculus with 4 samples.

Results

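Small nucleolar RNAs (snoRNAs) were followed through the 110 rows, of 24421 in the deposited gene table, whose symbol begins with Snord or Snora. The prefix sets the class, and 74 rows are box C/D snoRNAs (Snord) and 36 are box H/ACA snoRNAs (Snora). The table comes from tissue labelled as colon, taken near the anus, of 4 C57BL/6 mice of 8 weeks, 2 of genotype Usp25+/+ (WT-139 and WT-140, called wild-type here) and 2 of genotype Usp25-/- (KO-826 and KO-850, called knockout). Where every mouse has a value, WT-139 comes first, then WT-140, KO-826 and last KO-850. Usp25 encodes a protease that removes ubiquitin from proteins. All 4 mice had drunk dextran sulfate sodium (DSS), which injures the gut lining, at 2.5% for 5 days and then normal water for 2 days, so no untreated mouse serves as a reference. Each library was made from 1 mouse, after selection of polyadenylated RNA with oligo dT. The genotypes are compared to learn which transcripts differ after DSS in the absence of Usp25.

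Box C/D snoRNAs guide ribose methylation of ribosomal RNA by fibrillarin, and box H/ACA snoRNAs guide the conversion of uridine to pseudouridine by dyskerin. In mammals most of them lie in introns of other genes, called host genes, many of which encode ribosomal proteins or other parts of the translation machinery. After splicing the intron lariat is opened and trimmed back to the snoRNA, which is protected by its core proteins and carries no poly(A) tail. A library of polyadenylated RNA is therefore a poor measure of mature snoRNAs, and a signal at a snoRNA can also come from unspliced or alternatively spliced transcripts of the host gene. The values below are levels at the annotated snoRNA in such libraries. They were not tested as levels of the mature RNA.

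Of the 110 rows, 93 had a single snoRNA of the same symbol in the Gencode annotation of the mm9 build. The 61 placed box C/D snoRNAs were 64 to 238 bases long with a median of 80 bases, and the 32 placed box H/ACA snoRNAs 127 to 196 bases with a median of 132.5 bases. Sequences are given for 8 of them whose levels are described below. They are 5 of the rows with the highest levels (Snord17, Snord22, Snora65, Snora28 and Snora31) and the 3 snoRNAs of 1 noncoding host gene (Snord49a, Snord49b and Snord65). Without a call, Snord49a was lower and Snord65 higher in both knockout mice, and Snord49b overlapped between the genotypes. All 8 sequences are read 5′ to 3′ on the strand of the snoRNA from the mm9 genome. Capitals in box C/D snoRNAs mark the box C letters NTGATGA in the first 25 bases and the last CTGA, the box D letters, in the final 25 bases. In box H/ACA snoRNAs they mark the ANANNA match nearest the middle, searched 15 bases to either side of it, and the last ACA in the final 10 bases. Snord22 had no NTGATGA and Snora65 no ANANNA in the windows searched.
Snord17: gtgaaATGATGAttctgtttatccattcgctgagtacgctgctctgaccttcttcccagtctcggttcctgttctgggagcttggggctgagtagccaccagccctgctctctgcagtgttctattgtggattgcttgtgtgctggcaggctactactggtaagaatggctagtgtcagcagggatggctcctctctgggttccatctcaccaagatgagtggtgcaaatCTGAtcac
Snord22: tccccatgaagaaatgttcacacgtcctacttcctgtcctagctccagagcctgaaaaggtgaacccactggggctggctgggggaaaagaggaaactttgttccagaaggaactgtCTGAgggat
Snora65: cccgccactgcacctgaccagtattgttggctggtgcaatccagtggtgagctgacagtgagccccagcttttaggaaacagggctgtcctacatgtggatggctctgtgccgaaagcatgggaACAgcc
Snora28: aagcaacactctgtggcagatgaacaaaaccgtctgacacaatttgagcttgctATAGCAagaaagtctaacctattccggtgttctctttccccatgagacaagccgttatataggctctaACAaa
Snora31: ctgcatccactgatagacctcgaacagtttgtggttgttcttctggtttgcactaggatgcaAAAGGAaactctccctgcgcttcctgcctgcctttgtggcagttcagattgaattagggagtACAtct
Snord49a: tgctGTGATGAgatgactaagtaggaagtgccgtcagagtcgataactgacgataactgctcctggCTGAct
Snord49b: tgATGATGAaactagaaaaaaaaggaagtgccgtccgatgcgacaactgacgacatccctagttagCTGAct
Snord65: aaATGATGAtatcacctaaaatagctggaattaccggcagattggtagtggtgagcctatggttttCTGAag

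These 8 snoRNAs lie at chr2:144091715-144091952 on the minus strand (Snord17, in an intron of Snx5), chr19:8800356-8800481 (Snord22, in Snhg1 and overlapping an annotated exon of it), chr2:32818811-32818940 (Snora65, in Rpl12 and overlapping an annotated exon of it), chr12:112779152-112779278 (Snora28, in an intron of Eif5) and chr14:76247712-76247841 (Snora31, in an intron of Tpt1). Snord49b, Snord49a and Snord65 follow each other in introns of 2410006H16Rik at chr11:62416581-62416652, chr11:62416952-62417023 and chr11:62418017-62418088. All but Snord17 are on the plus strand. The boxes were common in the placed rows and less so in nearby sequence of the same length and strand, taken 300 bases upstream. CTGA was found in 61 of 61 box C/D snoRNAs and in 10 of their 61 upstream windows (16.4%). The stricter NTGATGA was found in 37 snoRNAs (60.7%) and 3 windows (4.92%). ACA was found in 30 of 32 box H/ACA snoRNAs (93.8%) and 5 windows (15.6%), and ANANNA in 28 (87.5%) and 8 windows (25%). The searches covered only the strand of the snoRNA, since the boxes act in the RNA. The windows were not screened for other snoRNAs. The window of Snord49a covers nearly all of Snord49b, and it is counted among the windows with CTGA and those with NTGATGA.

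Near-identical copies can share reads, so their levels are uncertain. Among the placed rows 8 pairs of the same class were at least 70% identical over the longer sequence. Snord14d and Snord14c, both in the heat shock cognate gene Hspa8, were 97.7% identical and were listed at 0 in all 4 mice, while Hspa8 stood at 795.9 to 1091 FPKM. Snord1b and Snord1c were 97.4% identical and Snord88c and Snord88a 94.4%. Snord49a and Snord49b were 70.8% identical, and Snord65 was 58.3% identical to Snord49a.

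Levels are given as FPKM, fragment numbers that the authors divided by transcript length and by all mapped fragments. Usp25 had 38.5 and 16.6 FPKM in wild-type mice against 2.65 and 1.71 FPKM in knockout mice, which fits the labels. Mouse WT-139 stood apart from the others, with a correlation over all tested genes of 0.876 to 0.890 against 0.933 to 0.968 among the other 3. The summed level of 9 neutrophil markers was 49550 FPKM in mouse WT-139 and 1371 to 4063 FPKM in the other 3 mice. By mean log2 values 9 of 9 were lower in knockout mice, without a call, while 53.6% of all tested genes were higher. All 9 overlapped between the genotypes. Each was highest in mouse WT-139, and the other wild-type mouse, WT-140, had the lowest sum of the 4 mice (1371 FPKM). Most colon epithelial markers were nearly absent in all libraries. Zg16, Aqp8 and Cdx1 were listed at 0 throughout, and the summed level of 8 such markers was 4.96 and 3.17 FPKM in wild-type and 52.5 and 7.35 FPKM in knockout mice. Krt20, a keratin of surface epithelium, gave 52.4 FPKM of the sum in mouse KO-826. Lung epithelial markers (Sftpb, Sftpc, Sftpd and Scgb1a1) summed to 2117 to 5063 FPKM. The 4 smooth muscle markers summed to 7.10 to 10.3 FPKM. These levels go against the label colon, which is used here only as the label. The part of these differences in the snoRNA results was not tested.

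The deposited values carry no read totals, which leaves the depth unknown, but the short rows shared a recurring value. Among 1313 rows of genes of at most 150 bases, 1 value above 0 recurred most often in each mouse. This value, called a step here, was 0.877, 1.09, 1.39 and 1.48 FPKM in the 4 mice in order, and 28, 13, 14 and 25 short rows sat on it. Rows between 42 and 121 bases long shared the step, so it did not follow the length of the gene. The snoRNA rows on it were Snord8 in mouse WT-140, Snord43, Snord45b and Snord61 in mouse KO-826, and Snord111, Snord45b, Snord61, Snord70 and Snord88c in mouse KO-850. Values of 1 to 3 steps were held by 27, 24, 25 and 26 snoRNA rows in the 4 mice in order. Only 7, 3, 4 and 6 rows lay above 10 steps. Values below a step occurred in 20, 12, 17 and 10 rows. Only 4, 3, 4 and 6 of the 77, 67, 67 and 66 rows above 0 were whole numbers of steps, within 0.1%, so nearly all values fell between steps. Whether a step is 1 fragment was not tested. A level of 1 FPKM, the limit for testing a gene, is thus about as large as a step.

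At these levels 66 to 77 of the 110 snoRNA rows were above 0 in a mouse, and 52 to 58 reached 1 FPKM. Rows above 0 numbered 77 in mouse WT-139, 67 in mouse WT-140, 67 in mouse KO-826 and 66 in mouse KO-850. These are 70%, 60.9%, 60.9% and 60% of the rows, against 84.2%, 63.9%, 70.6% and 64.7% of all genes. Mouse WT-139 thus had the highest share over all genes too. In all 4 mice 44 rows were above 0, 32 reached 1 FPKM and 3 reached 10 FPKM, namely Snora65, Snord22 and Snora28. In 1 mouse alone 17 rows were above 0, and 8 of these were above 0 in mouse WT-139. The median over all rows was 0.978, 1.04, 0.729 and 1.48 FPKM in the 4 mice in order. The share at 1 FPKM in a mouse, 47.3% to 52.7% of the snoRNA rows, was near the 47.8% to 49.4% of all genes. Rows for microRNAs, the other large set of short genes, were sparser, with 9.24% to 14.7% of 1180 at 1 FPKM. Their summed level was nevertheless higher, at 2630 to 8462 FPKM against 253 to 353 FPKM for the snoRNA rows. These values are a description, and the differences were not tested.

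Of the 110 rows 17 were listed at 0 in all 4 mice, 13 of box C/D and 4 of box H/ACA. They included snoRNAs of well expressed hosts, such as Snord14a of the ribosomal protein gene Rps13 (mean of the host 483 FPKM), Snora20 of the chaperonin gene Tcp1 (66.4 FPKM), Snord110 of Nop56 (38.8 FPKM) and Snord82 of Ncl (27.7 FPKM). They also included snoRNAs known for expression in the brain. Snord116 and Snord116l1 of the imprinted Prader-Willi region were listed at 0, and Snord116l2 of that region was at 1.01 FPKM in mouse WT-139 alone. Snora35 lies in Htr2c, a serotonin receptor gene of neurons at 0.441 to 1.06 FPKM. Absence of the RNA, shallow sequencing and a failed estimate would all be listed as 0.

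The 12 rows with the highest mean differed widely in how well the mice resembled each other. Snora65 of the ribosomal protein gene Rpl12 had 14.1 and 14.8 FPKM in wild-type and 25.9 and 15.1 FPKM in knockout mice. Its lower knockout mouse lay just above both wild-type mice. Snora28 of the initiation factor gene Eif5 had 16 and 10.2 FPKM against 11.7 and 20.1 FPKM, and the genotypes overlapped. Snora31 of Tpt1, a tumour protein gene under translational control, had 16.7 and 7.33 FPKM against 18.3 and 7.44 FPKM. In Snora31 each genotype thus held 1 high and 1 low mouse. Snora81, in the RNA helicase gene Eif4a2, had 13.8 and 6.49 FPKM against 4.04 and 15.1 FPKM. Snora70 of Rpl10 was low in mouse WT-139 alone, with 0.734 FPKM against 12.6 FPKM in mouse WT-140 and 7.37 and 7.34 FPKM in knockout mice. Snora64 of Rps2 had 1.27 and 8.18 FPKM against 4.96 and 11.03 FPKM, and Snora21 of Rpl23 had 1.67 and 6.43 FPKM against 12.5 and 4.703 FPKM. Both were lowest in mouse WT-139, and their genotypes overlapped.

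Among the box C/D rows of this group, Snord17 had the highest mean of all snoRNA rows. It stood at 2.58 and 12.7 FPKM in wild-type mice and at 31.6 and 28.7 FPKM in knockout mice, with means of 7.64 ± 7.16 and 30.2 ± 2.03 (SD, n = 2). Snord22, known as U22 and needed for maturation of the small-subunit ribosomal RNA, stood at 13.7 and 10.4 FPKM against 24.5 and 20.6 FPKM, with means of 12.04 ± 2.32 and 22.5 ± 2.72 (SD, n = 2). In both rows the knockout mice were the higher ones and the genotypes did not overlap. Snord72 of Rpl37 was low in mouse WT-140 alone, at 0.310 FPKM against 13.5 FPKM in mouse WT-139 and 8.38 and 16.5 FPKM in knockout mice. Snord104, for which no host gene was found in the annotation, had 8.02 and 7.15 FPKM against 13.7 and 2.34 FPKM. Snord100 of Rps12 had 3.16 and 4.99 FPKM against 11.1 and 7.72 FPKM, without overlap.

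**Figure D1:**
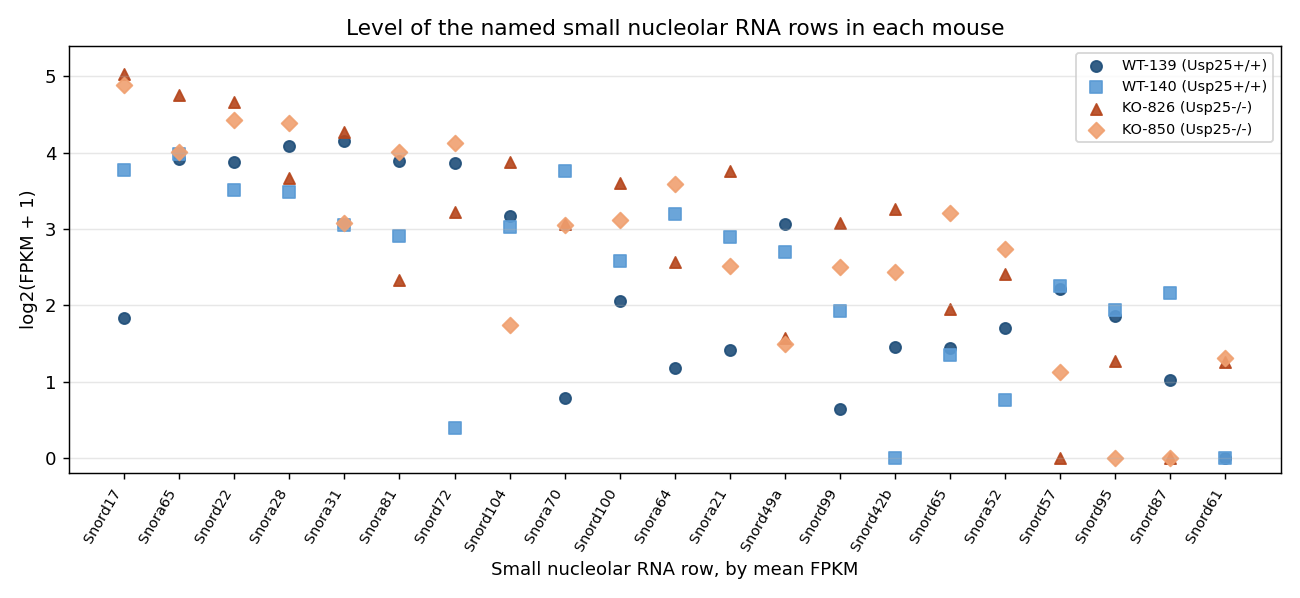
Levels of 21 snoRNA rows as log2(FPKM + 1) on the vertical axis, ordered by mean FPKM along the horizontal axis, and a point per mouse. Snord17 lies lowest in mouse WT-139 (2.58 FPKM) and highest in mouse KO-826 (31.6 FPKM), and several rows spread as widely within a genotype as between them.

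The snoRNA rows differed more from mouse to mouse than their host genes did. Over the 61 rows that reached 1 FPKM in at least 2 mice, the correlation of log2(FPKM + 1) between pairs of mice was 0.384 to 0.520 (Pearson). Over 60 host genes that passed the same filter it was 0.982 to 0.996, and the hosts span a wider range of levels. Neither rows nor genes are replicates, and the correlations only describe these libraries. The absolute log2 gap between mice KO-826 and KO-850 had a median of 1.01 in the snoRNA rows and of 0.27 in the hosts. All 8723 tested genes in the range of mean FPKM of the snoRNA rows gave 0.29. Between mice WT-139 and WT-140 the medians were 0.79, 0.45 and 0.47 in the same order. In 31 of the 61 rows the knockout mice lay more than 1 log2 unit apart.

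**Figure D2:**
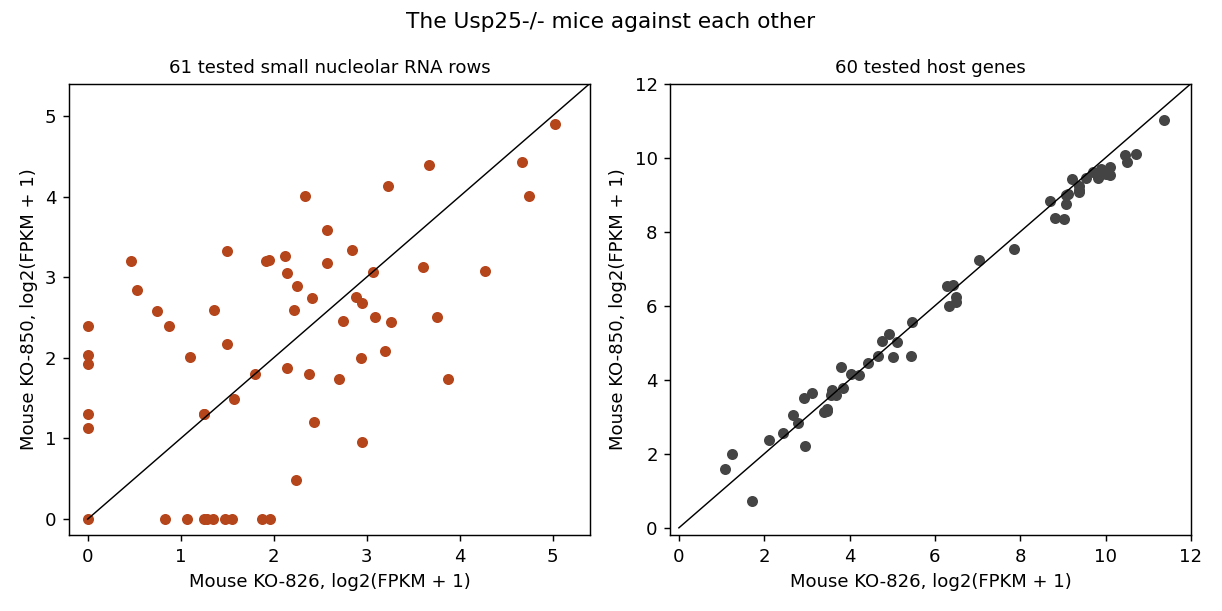
Levels in mouse KO-850 (vertical axis) against mouse KO-826 (horizontal axis) as log2(FPKM + 1), for 61 tested snoRNA rows on the left and 60 tested host genes on the right, with the line of equal level. The snoRNA rows scatter widely around the line (r = 0.520), with rows at 0 in 1 mouse only, whereas the hosts lie close to it (r = 0.994).

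A host gene on the same strand was found for 88 of the 93 placed rows, and 87 rows have a host with a value in the table. These 87 rows share 62 host genes. Of the hosts 18 hold 2 or more of the rows, so rows of 1 host are not independent of each other. Ribosomal protein genes formed 21 of the hosts and held 28 rows. Noncoding host genes such as Snhg1, Snhg12 and Gas5 formed 9 hosts with 17 rows, and 32 other protein-coding genes held 42 rows. Counted with the noncoding hosts throughout are 1500012F01Rik and 1810032O08Rik, which the annotation lists as protein-coding. FPKM is scaled to length, so a row and its host can be set side by side, within the limits given above for short rows.

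Nearly all snoRNA rows stood far below their hosts. In 82 of 87 pairs the row was below the host in every mouse, and the mean level of the row was 1.60% of that of its host at the median. The median log2 ratio of row to host, on the log2(FPKM + 1) scale, was -4.21, -4.05, -4.49 and -4.43 in the 4 mice in order. The gap differed between the classes of host, a difference that was not tested. In ribosomal protein genes the median host mean was 673 FPKM and the rows had a median of 3.17 FPKM, a median log2 ratio of -7.46. In noncoding hosts the median host mean was 8.59 FPKM and the rows stood at 2.91 FPKM, a median ratio of -1.20. Other protein-coding hosts lay at 19.2 FPKM and their rows at 0.554 FPKM, a median ratio of -3.55. Levels of the rows in ribosomal protein and noncoding hosts were thus similar, although the hosts differed widely in level. Across the 87 pairs the correlation of row and host levels was weak, from 0.323 to 0.447 (Pearson) and 0.323 to 0.454 (Spearman) in the 4 mice. The pairs share libraries and often hosts.

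**Figure D3:**
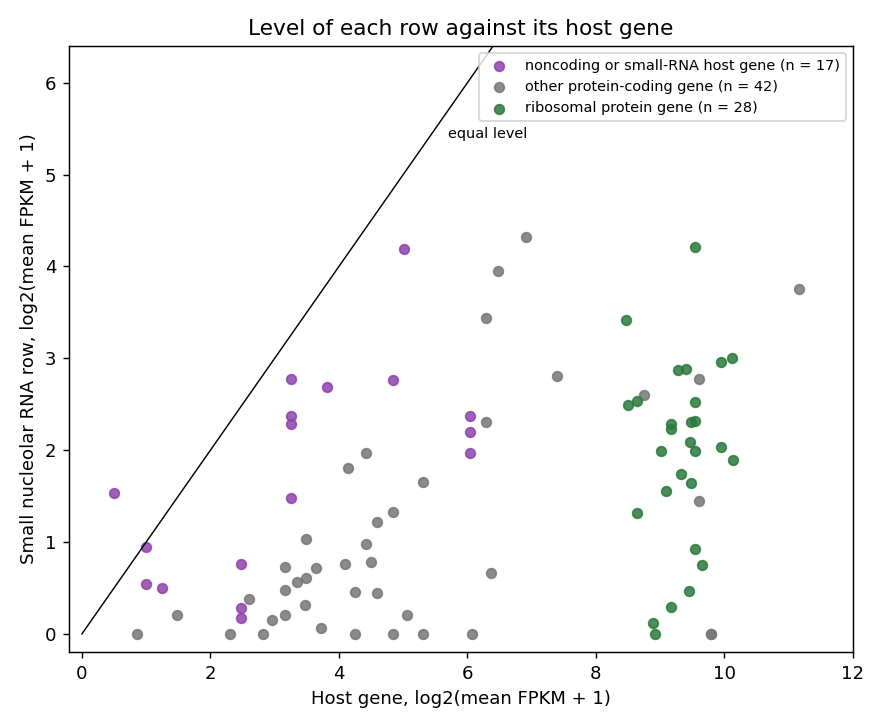
Mean level of 87 snoRNA rows (vertical axis) against the mean level of the host gene (horizontal axis), both as log2(mean FPKM + 1) over 4 mice, coloured by class of host. Rows of ribosomal protein genes lie farthest below the line of equal level, and rows of noncoding hosts lie nearest to it.

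Among the rows nearest to their hosts were those of noncoding genes, whose spliced transcripts are not known to encode proteins. Snord22 stood at 55.6% of the mean of Snhg1, which had 30.03 and 28.5 FPKM in wild-type and 29.4 and 36.5 FPKM in knockout mice. Snora44, Snora61, Snord99 and Snora16a stood at 68.2%, 48.5%, 45.2% and 20.9% of Snhg12. Snord47 stood at 41.9% of Gas5 and Snord12 at 20.9% of 1500012F01Rik, which the annotation lists as protein-coding. Snora78 lay above its host Snhg9, with 1.55, 2.95, 0 and 3.08 FPKM in the 4 mice in order against 1.06, 0, 0 and 0.607 FPKM for the host. That snoRNA also lies opposite Rps2 on the other strand, and whether the authors' values used strand is not given in the sources used here. Snora43, Snora17, Snora74a and Snord99 were the others at or above the host in at least 1 mouse.

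Some snoRNAs overlap an exon of an annotated transcript of the host, where reads of a spliced polyadenylated transcript can fall. This was so for 33 of the 87 rows. Of these 24 (72.7%) reached 1 FPKM in at least 2 mice, and their mean FPKM had a median of 3.25. Among the 54 rows that overlap no exon 28 (51.9%) did so, with a median of 1.00 FPKM. As a share of the host the medians were 1.56% and 1.78%. Snord17, Snora28 and Snora31 are examples of abundant rows that overlap no annotated exon. The difference between both sets was not tested, since rows of a host are not independent.

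Between the genotypes no snoRNA row passed the test. Of the 110 rows 61 were tested, 41 of box C/D and 20 of box H/ACA. With limma and Benjamini-Hochberg adjustment at 0.05, 0 of these rows and 0 of 12103 genes (0%) were called. Among the rows the smallest adjusted p was 0.968. Without adjustment 11 of the 61 rows (18.03%) had a p under 0.05, against 400 of all tested genes (3.3%). Of these 7 were higher in knockout mice (all genes 2.25%) and 4 lower (all genes 1.06%). This count was 12 of 56 rows without mouse WT-139 (all genes 5.6%), 14 of 54 without WT-140 (22.3%), 11 of 54 without KO-826 (0.945%) and 9 of 58 without KO-850 (3.23%), fits chosen after seeing the data. Rows passed the unadjusted limit in a larger share than all genes with each of WT-139, KO-826 and KO-850 left out, and in about the same share without WT-140. The rows' own wide spread between mice is given above, and its part in these counts was not tested. The 11 rows include Snord61 and Snord87, which were listed at 0 in both mice of 1 genotype. Only the genotype where they were higher brought them past the filter, which was the same for all genes. Both, and Snord15a, which only wild-type mice brought past the filter, are also among the rows without overlap below. Mean log2 values were higher in knockout mice for 33 rows (54.1%, against 53.6% of all genes) and lower for 28. The median log2 difference was 0.07 over the rows and 0.03 over all tested genes. For 14 rows (23.0%) both knockout mice lay above both wild-type mice, against 19% of all genes, and for 7 (11.5%) below, against 14.7%. The shares of higher rows and of rows without overlap were thus near those of all genes. In bulk tissue, fewer cells of a type and less RNA per cell cannot be told apart.

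Knockout mice stood higher in 8 of the 12 rows with the smallest unadjusted p. The share was similar over all genes, where 272 of the 400 with an unadjusted p under 0.05 by limma were higher. For Snord17 the log2 difference was 2.15 ± 0.66 (SE) with an adjusted p of 0.968 by limma. Its host Snx5, a sorting nexin of endosomes, had 65.4 and 134 FPKM against 129 and 150 FPKM and a log2 difference of 0.57. Snord17 was the only row called when a mouse was left out. Leaving out WT-140 gave a log2 difference of 3.12 and a limma adjusted p of 0.0306, in a fit that called 1.38% of all genes. That fit holds a single wild-type mouse, WT-139, the library that stood apart, and takes its spread from the knockout pair alone, so the lone mouse is assumed to vary as they do. Leaving out WT-139 gave 1.19 and an adjusted p of 0.758. Over the 11 alternatives its adjusted p ranged from 0.0306 to 1.00.

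Snord22 had a log2 difference of 0.86 ± 0.30 (SE), and its host Snhg1 one of 0.16. Snord100 had 1.04 ± 0.35 (SE) and its host Rps12 0.64. Both rows stood higher in each knockout mouse than in each wild-type mouse, as did Snord42b, Snora52, Snord99, Snord65 and Snord61. Snord42b of Rpl23a stood at 1.75 and 0 FPKM in wild-type and at 8.59 and 4.43 FPKM in knockout mice. Snora52 of Rplp2, a gene of the acidic stalk of the ribosome, stood at 2.25 and 0.694 FPKM against 4.34 and 5.704 FPKM. Snord61, in the RNA-binding protein gene Rbmx, was listed at 0 in both wild-type mice and had 1.39 and 1.48 FPKM in knockout mice, which is exactly the step in each. The values of Snord61 thus differ by a single step.

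The 4 rows among these 12 that stood lower in knockout mice were Snord49a, Snord57, Snord87 and Snord95. Snord57, in the gene of the box C/D core protein Nop56, stood at 3.63 and 3.79 FPKM in wild-type mice, was listed at 0 in mouse KO-826 and stood at 1.19 FPKM in mouse KO-850. Nop56 itself went the other way, with 27.7 and 37.95 FPKM against 43.2 and 46.4 FPKM. Snord87, which the mm9 annotation does not place, stood at 1.04 and 3.46 FPKM and was listed at 0 in both knockout mice. Snord95 of Gnb2l1, the gene of the ribosomal scaffold protein RACK1, stood at 2.63 and 2.85 FPKM against 1.43 and 0 FPKM. Snord96a of the same host overlapped between the genotypes, with 8.72 and 2.59 FPKM against 6.404 and 5.73 FPKM.

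Rows of the same host gene could stand on opposite sides between the genotypes. The noncoding gene 2410006H16Rik, with 63.3 and 54.2 FPKM in wild-type and 80.1 and 62.1 FPKM in knockout mice, holds the 3 snoRNAs whose sequences end the list above. Snord49a stood at 7.37 and 5.53 FPKM against 1.97 and 1.81 FPKM, lower in both knockout mice (log2 difference -1.36 ± 0.30, adjusted p = 0.968 by limma). Snord65 stood at 1.71 and 1.56 FPKM against 2.87 and 8.26 FPKM, higher in both (1.19 ± 0.48). Snord49b had 3.94 and 2.35 FPKM against 1.82 and 3.51 FPKM and overlapped. The host had a log2 difference of 0.26. Whether these rows differ from each other between genotypes was not tested.

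In Snhg12, another noncoding host, levels were 7.41 and 9.95 FPKM in wild-type and 6.69 and 10.3 FPKM in knockout mice. Snord99 had 0.559 and 2.80 FPKM against 7.49 and 4.66 FPKM, and Snora44 had 4.16 and 3.92 FPKM against 6.19 and 9.14 FPKM. Both were higher in each knockout mouse. Snora61 overlapped, at 3.05 and 6.94 FPKM against 4.2 and 2.48 FPKM, and so did Snora16a, which was listed at 0 in mouse WT-139 and stood at 1.51 FPKM in mouse WT-140 and at 0.672 and 5.00 FPKM in knockout mice. The ribosomal protein gene Rpl13a, at 390 and 787 FPKM against 1028 and 758 FPKM, holds Snord32a, Snord33, Snord34 and Snord35a. Snord34 was higher in both knockout mice, at 2.42 and 3.28 FPKM against 3.78 and 6.39 FPKM, and the other 3 overlapped. In Rpl23a, Snord4a had 1.74 and 3.50 FPKM against 5.72 and 4.51 FPKM, and Snord42a was above 0 only in mouse WT-139, at 0.915 FPKM. In Rps12, Snora33 overlapped where its neighbour Snord100 did not, at 1.43 and 4.33 FPKM against 0.449 and 6.15 FPKM. In Eif4a2, Snord2 stood at 6.45 and 3.28 FPKM against 3.42 and 2.67 FPKM.

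**Figure D4:**
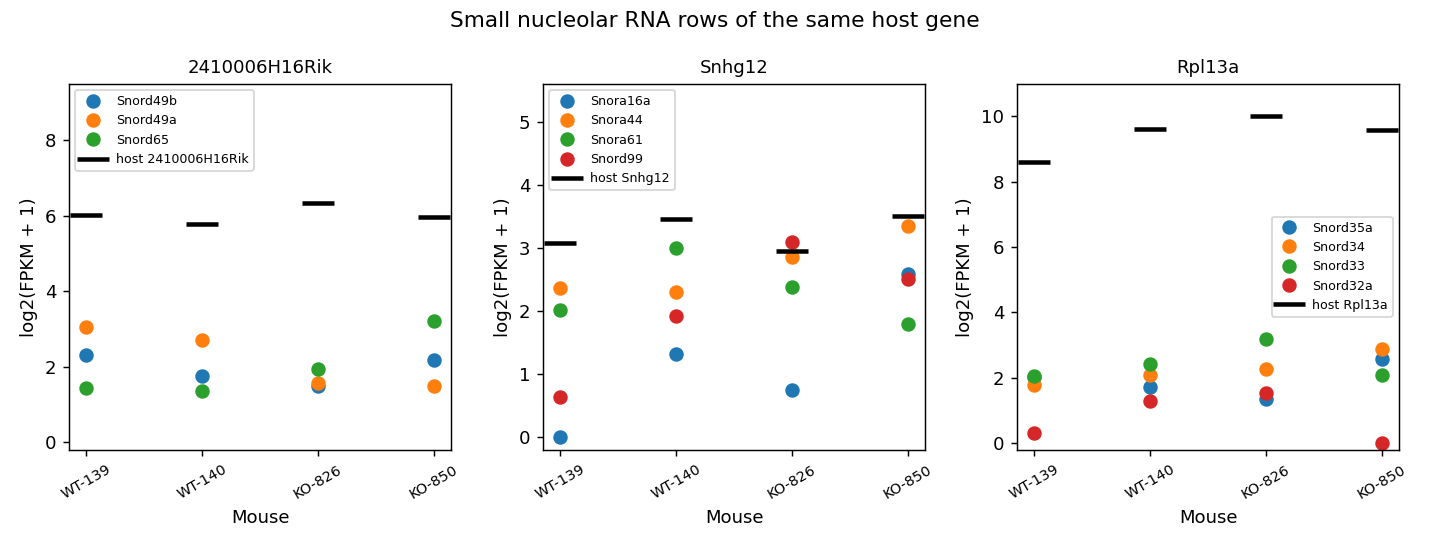
Levels of the snoRNA rows in 2410006H16Rik, Snhg12 and Rpl13a (coloured points) and of the host (black bars) by mouse, the vertical axis being log2(FPKM + 1). In 2410006H16Rik, Snord49a is lower and Snord65 higher in both knockout mice, while the host stays between 54.2 and 80.1 FPKM.

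The host genes themselves mostly stood higher in knockout mice, by small amounts and without a call. Of 60 tested hosts 52 (86.7%) had a higher mean log2 value, against 53.6% of all genes, with a median log2 difference of 0.31. For 22 (36.7%) both knockout mice lay above both wild-type mice, against 19% of all genes, and for 3 (5.00%) below, against 14.7%. Limma called 0 hosts (smallest adjusted p = 0.968), and 0 had an unadjusted p under 0.05. All 21 ribosomal protein hosts were higher, with a median of 0.55 and a summed level of 9134 and 14437 FPKM in wild-type mice and of 17999 and 14343 FPKM in knockout mice. Mouse WT-139, the library rich in neutrophil transcripts, was thus the low one, and the other wild-type mouse overlapped with knockout mice. Without mouse WT-139, 48 of 60 hosts were higher, against 48.5% of all genes, and the median of the ribosomal protein hosts was 0.19. Higher hosts numbered 46 of 59 without WT-140 (all genes 55.8%), 48 of 59 without KO-826 (56.1%) and 45 of 60 without KO-850 (51.4%), counts chosen after seeing the data.

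Most rows in ribosomal protein genes stood higher in knockout mice, and rows of the other classes were split. Of the 23 tested rows in these genes 16 were higher and 7 lower, with a median log2 difference of 0.47. Among all tested genes 53.6% were higher. All 28 rows of the class summed to 78.8 and 92.3 FPKM in wild-type and to 136 and 127 FPKM in knockout mice. The median was 0.29 without mouse WT-139 and 0.29 to 0.79 when each mouse was left out in turn. Of 13 tested rows in noncoding hosts 6 were higher and 7 lower (median -0.17), and of 16 rows in other coding genes 7 were higher and 9 lower (median -0.17). For noncoding hosts the median was above 0 whichever mouse was left out (0.07 to 0.73), so its sign is not fixed. For other coding genes it ranged from -0.58 without WT-140 to 0.19 without KO-826, and its sign is not fixed either. Whether the classes differ was not tested. Over all 51 pairs in which the row and its host were both tested, the difference had the same sign in 25.

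**Figure D5:**
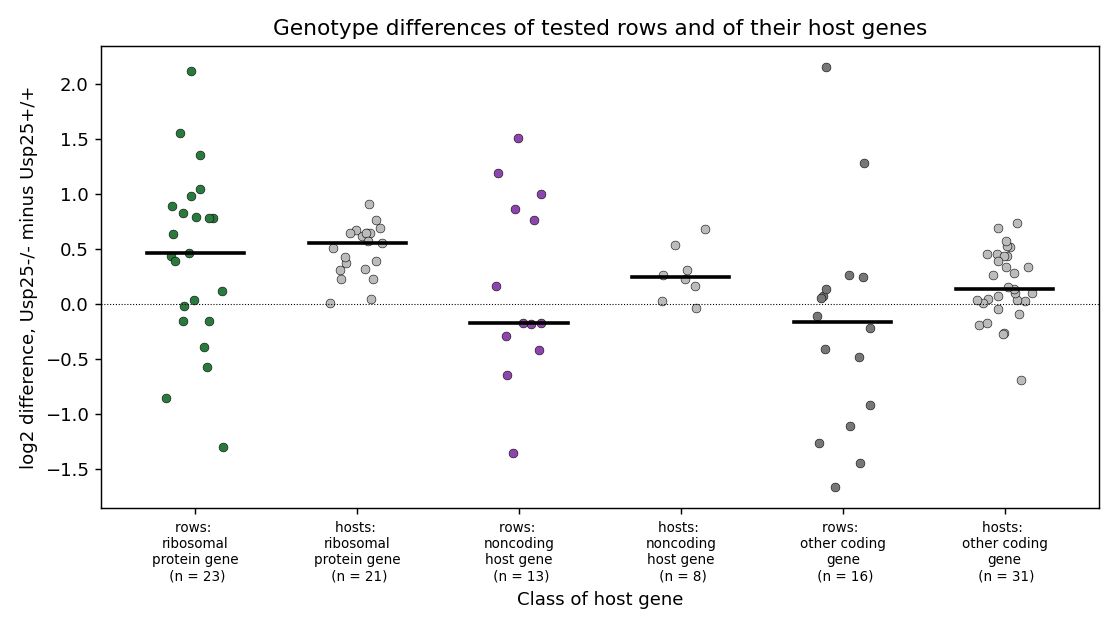
Log2 difference between knockout and wild-type mice (vertical axis) for tested snoRNA rows and for their tested host genes, by class of host, with 1 point for each row or gene and a bar at the median. Rows of ribosomal protein genes have a median of 0.47 and their hosts 0.55, and the rows spread more widely than the hosts in each class.

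The summed level of all 110 snoRNA rows was 266 and 253 FPKM in wild-type mice and 327 and 353 FPKM in knockout mice. Without Snord17 the sums were 263 and 240 FPKM against 295 and 324 FPKM, and without the 3 highest rows 235 and 215 FPKM against 245 and 288 FPKM. Both knockout mice thus held the higher sums in each case. Box C/D rows summed to 156 and 144 FPKM against 200.2 and 213 FPKM, and box H/ACA rows to 110.1 and 109 FPKM against 127 and 139.7 FPKM. With 2 mice against 2 the smallest exact permutation p is 0.33, so that test cannot pass a threshold of 0.05, and no p is given for these sums.

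Genes of the snoRNA-protein particles had mostly higher mean log2 values in knockout mice, and none passed the test. Of all tested genes 53.6% were higher. All 4 tested box C/D core genes were higher, with a median log2 difference of 0.44. Fbl, the methyltransferase fibrillarin, stood at 20.2 and 40.5 FPKM in wild-type and at 45.1 and 49.7 FPKM in knockout mice, and Nop58, a core scaffold, at 17.6 and 13.0 FPKM against 20.6 and 21.0 FPKM. Fbl was lowest in mouse WT-139, the library rich in neutrophil transcripts. Nhp2l1, which binds the folded boxes first, overlapped at 36.9 and 47.5 FPKM against 51.1 and 41.3 FPKM. All 4 box H/ACA core genes were higher as well (median 0.26). Their summed level was 52.2 FPKM in mouse WT-139 and 102 FPKM in mouse WT-140, against 94.8 and 81.7 FPKM, so WT-139 was the low library and WT-140 lay above both knockout mice. Gar1 had 3.89 and 3.46 FPKM against 4.28 and 6.14 FPKM, and Dkc1, the pseudouridine synthase dyskerin, overlapped at 3.66 and 6.08 FPKM against 5.34 and 6.60 FPKM. Among assembly and U3-specific factors 9 of 10 were higher (median 0.21), among them Znhit3 at 7.20 and 6.43 FPKM against 12.1 and 9.66 FPKM. The sum over this list was also lowest in WT-139, with 69.8 and 94.5 FPKM against 97.7 and 95.1 FPKM.

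Factors that mature snoRNAs were split, with 5 of 12 higher and 7 lower (median -0.02). Dbr1, which opens the intron lariat, had 4.66 and 5.30 FPKM against 2.66 and 4.46 FPKM, and Coil, the scaffold of Cajal bodies, had 0.383 and 1.33 FPKM against 1.69 and 1.70 FPKM. Genes of ribosomal RNA synthesis and processing were higher in 16 of 22 and lower in 6 (median 0.17), while 53.6% of all tested genes were higher. Their summed level was lowest in mouse WT-139, with 358 and 411 FPKM against 491 and 496 FPKM. The nucleolar chaperone gene Npm1 had 114 and 113 FPKM against 162 and 171 FPKM, and the methyltransferase gene Nop2 had 9.15 and 9.11 FPKM against 13.2 and 12.6 FPKM. Nonsense-mediated decay limits many noncoding host transcripts, and 5 of its 8 tested factors were higher (median 0.05). Upf2 stood at 8.26 and 5.82 FPKM against 4.14 and 5.55 FPKM. In each of these lists the smallest adjusted p was 0.968 by limma.

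Some rows whose position was not in the mm9 annotation could be tied to a host through the spans of the RefSeq gene table of the GRCm38.p6 build, which gives names only and no strand here. Snord43 lies within Rpl3, Snord58b within Rpl17, Snord73a within Rps3a1 and Snora24 within Snhg8. Their mean levels were 0.104% to 5.27% of the host. Snora26 within Dancr stood above it, with a mean of 1.18 FPKM against 0.226 FPKM. Snord52 stood at 22.6% of 1110038B12Rik, with 4.74 and 2.02 FPKM in wild-type and 3.43 and 7.33 FPKM in knockout mice. Snord118, known as U8 and transcribed from a gene of its own, had no host in the mm9 annotation. The RefSeq spans tied it to no single gene with a value. Snord118 stood at 2.55 FPKM in mouse WT-139, was listed at 0 in mouse WT-140 and stood at 4.41 and 1.31 FPKM in knockout mice.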

How the data were processed

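The deposited table holds FPKM values, computed by the authors, with 1 column for each of the 4 mice. Bowtie 0.12.2 and the build mm9 are named in the submitters' processing notes. Not given in the sources used here are the tool behind the FPKM values, the annotation, strandedness and filters. After 27 symbols turned into dates were left out, 24394 genes remained, and 12103 with at least 1 FPKM in at least 2 mice were tested. Usp25-/- was compared with Usp25+/+ on log2(FPKM + 1), which understates changes of low genes, by limma (3.58.1, R 4.3.3), moderated with a trend of variance on mean level. The test was two-sided, with Benjamini-Hochberg adjustment over all tested genes and a threshold of 0.05, and was tested on simulated data. Nothing in the labels says that the mice share a litter or batch, so no block was fitted, and the spread that p-values measure is that between these 4 mice.

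Hosts are the smallest annotated gene other than a short RNA that holds the whole snoRNA on the same strand in the Gencode annotation of mm9 (NCBIM37), read with Python 3.11.15. Steps were read within a tolerance of 0.1%. Text names the 12 rows with the highest mean, the 12 with the smallest p, Snord49a, the hosts and neighbours of these, and up to 4 genes of each list by p. The members, lists and rule were chosen with earlier results of these data known. Rows named beside host shares, steps, zeros, the RefSeq spans and Rpl13a, and Nhp2l1 and Hspa8, were chosen after their values were seen. Other pseudocounts, filters and scalings, a fit without the trend, and fits without each mouse were tried as alternatives. Leaving out a mouse for counts of higher hosts, host classes and unadjusted p, the RefSeq spans, and sums without the highest rows were chosen after seeing the data.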

Additional observations from a re-analysis of the deposited data

How the results depend on the processing

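Depth is unknown, and 33 to 44 of the 110 snoRNA rows were at 0 in a mouse, which limits what can be compared. Each fit without a mouse leaves 1 genotype with a single mouse, assumed to vary like the other pair. The count of called genes stayed at 0 except without mouse WT-140 (163 genes, 1 of them a snoRNA row), so over the mice left out it ranged from 0 to 163 genes and from 0 to 1 rows. The count of rows at an unadjusted p under 0.05 ranged from 9 to 14 with a mouse left out, and that of higher hosts from 45 to 48 (52 with all mice), alternatives chosen after seeing the data. The median log2 difference of the snoRNA rows was 0.07, became 0.25 over rows with at least 1 FPKM in all 4 mice, and ranged from 0.019 to 0.51 with a mouse left out. At 10 FPKM in place of 1 FPKM the rows counted were 7, 5, 8 and 7 in the 4 mice in order. The median log2 ratio to the host, -4.04 over the mean of the mice, was -5.76 with a pseudocount of 0.1, -5.40 over tested rows, -4.16 with 1 value per host, and from -4.23 to -3.93 with a mouse left out.

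Of 21 named rows 14 kept the sign of their log2 difference in every alternative that could be fitted, and 7 turned when a mouse was left out. The rows named for the smallest p, and Snora65, had no overlap between the genotypes. Leaving out a mouse cannot turn the sign of such a row, so their kept signs do not show stability. Among the named rows with overlap, 7 turned and only Snora21 kept its sign. With a mouse left out the log2 difference ranged from -0.12 to 0.61 for Snora28, from -0.53 to 0.67 for Snora31, from -1.06 to 0.62 for Snora81, from -0.18 to 3.29 for Snord72, from -1.36 to 0.78 for Snord104, from -0.70 to 2.27 for Snora70 and from -0.12 to 1.90 for Snora64. No other setting turned a named row. Snord61 and Snord87 fell below the filter without a mouse of the genotype that holds them. No paired analysis was possible because the mice share no replicate number.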

Other observations

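Small Cajal body RNAs, relatives of snoRNAs that guide modification of spliceosomal RNAs, have 9 rows named Scarna. Their summed level was 5.92 and 8.93 FPKM in wild-type mice and 8.74 and 13.1 FPKM in knockout mice. Scarna2 stood at 0.905 and 2.14 FPKM in wild-type and at 3.45 and 7.04 FPKM in knockout mice, and Scarna6 went the other way, at 3.13 and 4.22 FPKM against 1.42 and 1.55 FPKM. Scarna9 stood exactly at the step of the short rows in both wild-type mice, at 0.877 and 1.09 FPKM. Scarna3a and Scarna3b were listed at 0 in all 4 mice. These rows were chosen after their values were seen.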
